A study of Rattus norvegicus with 2 samples.

Results

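The genes described here are 9 rat genes with which brain astrocytes take up glutamate, return it to neurons as glutamine, move water and couple to one another: the glutamate transporters Slc1a2, Slc1a3 and Slc1a1, glutamine synthetase Glul, the glutamine transporter Slc38a3, the water channel Aqp4, the connexins Gja1 and Gjb6, and the filament protein gene Gfap. They were taken by symbol from the deposited gene tables, which list 25399 genes, and each symbol had 1 row. The values are unique molecular identifiers (UMIs, counts of captured RNA molecules) in 2 single-nucleus libraries of the orbitofrontal cortex, 1 of rats given methamphetamine (METH) and 1 of rats given saline. The METH group was male Sprague-Dawley rats of 8 weeks that received 1 mg/kg METH by intraperitoneal injection for 7 days. The saline group was male Sprague-Dawley rats of 8 weeks that received saline by the same route for 7 days, and both groups were anesthetized with 60 mg/kg pentobarbital before the cortex was taken. Cortex of 4 rats per group was taken for 1 library per group, and the sources used here do not say how it was combined. There are no replicates, so no test was made and each value describes these libraries. The METH library held 5543 barcodes and 44969322 UMIs, with a median of 6401 UMIs per barcode, and the saline library 6969 barcodes and 42221257 UMIs, with a median of 4992. The libraries shared 9 barcodes. The RNA is nuclear, so RNA in astrocyte processes was not measured.

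Glutamate released at synapses is cleared mainly by astrocytes, which carry it inward with sodium, convert it to glutamine and export the glutamine to neurons. The same cells wrap vessels with end-feet rich in water channels and join one another through gap junctions, which spread potassium, glutamate and metabolites through the network. Gfap, the intermediate filament by which astrocytes are often recognised, is low in many astrocytes of the resting cortex and higher in those near the pial surface, in white matter and after injury.

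Promoter sequence was matched for 7 of the 9 genes in the RefSeq table of build GRCr8, as 13 windows of the 250 bases before an annotated start; Slc1a1 and Slc38a3 had none there. Below are windows of 4 genes on which the results turn: Slc1a3 and Gja1, which had their highest level in astrocytes in both libraries, and Aqp4 and Gfap, which were both highest in the same astrocyte subcluster. They lie at chr2:59557809-59558058 on the minus strand for Slc1a3, chr20:36302314-36302563 on the plus strand for Gja1, chr18:6797927-6798176 on the minus strand for Aqp4, and chr10:88361662-88361911 on the minus strand for Gfap. Each is written from 5′ to 3′ along its gene, and capitals mark the motif matches given after them.
Slc1a3: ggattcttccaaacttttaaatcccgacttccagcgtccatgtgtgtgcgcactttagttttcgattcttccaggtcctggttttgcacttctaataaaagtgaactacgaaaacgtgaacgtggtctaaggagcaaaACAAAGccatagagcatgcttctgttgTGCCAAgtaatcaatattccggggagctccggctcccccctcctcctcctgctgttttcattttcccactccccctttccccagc
Gja1: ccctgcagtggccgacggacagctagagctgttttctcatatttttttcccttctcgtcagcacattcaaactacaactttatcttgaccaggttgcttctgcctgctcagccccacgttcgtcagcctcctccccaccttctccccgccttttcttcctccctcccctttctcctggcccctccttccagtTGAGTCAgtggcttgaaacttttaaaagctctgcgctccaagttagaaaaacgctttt
Aqp4: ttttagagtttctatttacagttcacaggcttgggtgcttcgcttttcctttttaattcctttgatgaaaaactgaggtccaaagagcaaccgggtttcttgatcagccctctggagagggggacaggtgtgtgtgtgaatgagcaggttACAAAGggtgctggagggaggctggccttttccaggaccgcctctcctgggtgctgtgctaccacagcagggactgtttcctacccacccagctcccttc
Gfap: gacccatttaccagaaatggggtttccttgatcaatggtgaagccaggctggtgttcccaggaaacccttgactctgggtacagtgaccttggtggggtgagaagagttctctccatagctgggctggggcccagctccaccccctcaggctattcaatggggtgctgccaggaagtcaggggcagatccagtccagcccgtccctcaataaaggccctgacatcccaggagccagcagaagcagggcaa
A set of 4 motifs was searched on both strands in all 33469 windows of the table. The nuclear factor I half-site TTGGCA, whose other strand reads TGCCAA, was in 4022 of these 33469 windows and in a window of 3 of the 7 genes, Slc1a3, Glul and Gjb6. The SOX core ACAAAG was in 16.3% of all windows and in 5 of the 13, from Slc1a3, Aqp4 and Gjb6, again with the Slc1a3 match repeated. The other Aqp4 window, not printed above, held no match to any motif. The AP-1 site TGAGTCA was in 4.05% of all windows and in that of Gja1. The STAT site TTCNNNGAA was in 7.67% of all windows and in none of the 7 genes, and the Gfap window held no match to any motif. No matches overlapped one another, and a match of letters is not a measured binding site.

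Astrocytes were 454 of 5159 METH nuclei and 548 of 6509 saline nuclei that passed the filters, with a median depth of 2486.5 UMIs for METH and 2031 for saline. They were found by clustering without the 9 genes and named from other genes, among them Aldh1l1, Gpc5, Slc4a4 and Ntsr2. Of 15 markers, 14 are in the files and all 14 had UMIs in both libraries; their summed level in astrocytes was 4870 CPM (a count scaled by all UMIs of the class) in METH and 5314 CPM in saline. Of the 6 other classes compared between libraries, inhibitory neurons had the highest sum of the same markers, 337 CPM in METH and 346 CPM in saline, followed by mural nuclei with 288 CPM in METH and 256 CPM in saline, and excitatory neurons had 198 CPM in METH and 186 CPM in saline. The clusters were named by these same markers, so the sums describe the class and are no separate check of its name. Of other classes' markers in astrocytes, those of microglia, 11 of 11 detected, summed to 168 CPM in METH and 275 CPM in saline, those of oligodendrocyte precursors, 6 of 6 detected, to 1627 CPM in METH and 1770 CPM in saline, and those of excitatory neurons, 7 of 7 detected, to 173 CPM in METH and 220 CPM in saline. Committed oligodendrocyte precursor markers, 4 of 5 detected in METH, where Gpr17 was at 0, and 5 of 5 in saline, summed to 384 CPM in METH and 271 CPM in saline. The part of these in the results was not tested. Of the 2 clusters called astrocytes, a smaller one of 26 METH and 28 saline nuclei also held microglial and oligodendrocyte precursor markers, and results without it are given below.

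All of the genes but 1 had their RNA concentrated in astrocytes; the exception was Slc1a1. Astrocytes were 9.72% of the named nuclei and 3.91% of their UMIs in METH, against 8.82% of nuclei and 3.64% of UMIs in saline. They held 87.5% of the Gfap UMIs of named nuclei in METH and 80.9% in saline, 80.3% in METH and 78.4% in saline of the Slc1a3 UMIs, and 65.1% in METH and 59.8% in saline of the Slc1a2 UMIs. For Slc1a1 the share was 0.784% in METH and 1.06% in saline. With the unnamed clusters counted too, the astrocyte shares were lower. They were then 68.5% in METH and 65.5% in saline for Gfap, and 65.7% in METH and 63.9% in saline for Slc1a3. For Slc1a2 they were 56.4% in METH and 53.3% in saline. As a level per UMI, Gfap was 172 times as high in METH astrocytes as in all other named nuclei and 112 times in saline, Aqp4 151 times in METH and 85.0 times in saline, and Gja1 98.8 times in METH and 65.6 times in saline. For Aqp4 and Gja1 the lower fold in saline goes with higher counts outside astrocytes, where Aqp4 stood at 1.07 CPM in METH and 1.97 CPM in saline.

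**Figure D1:**
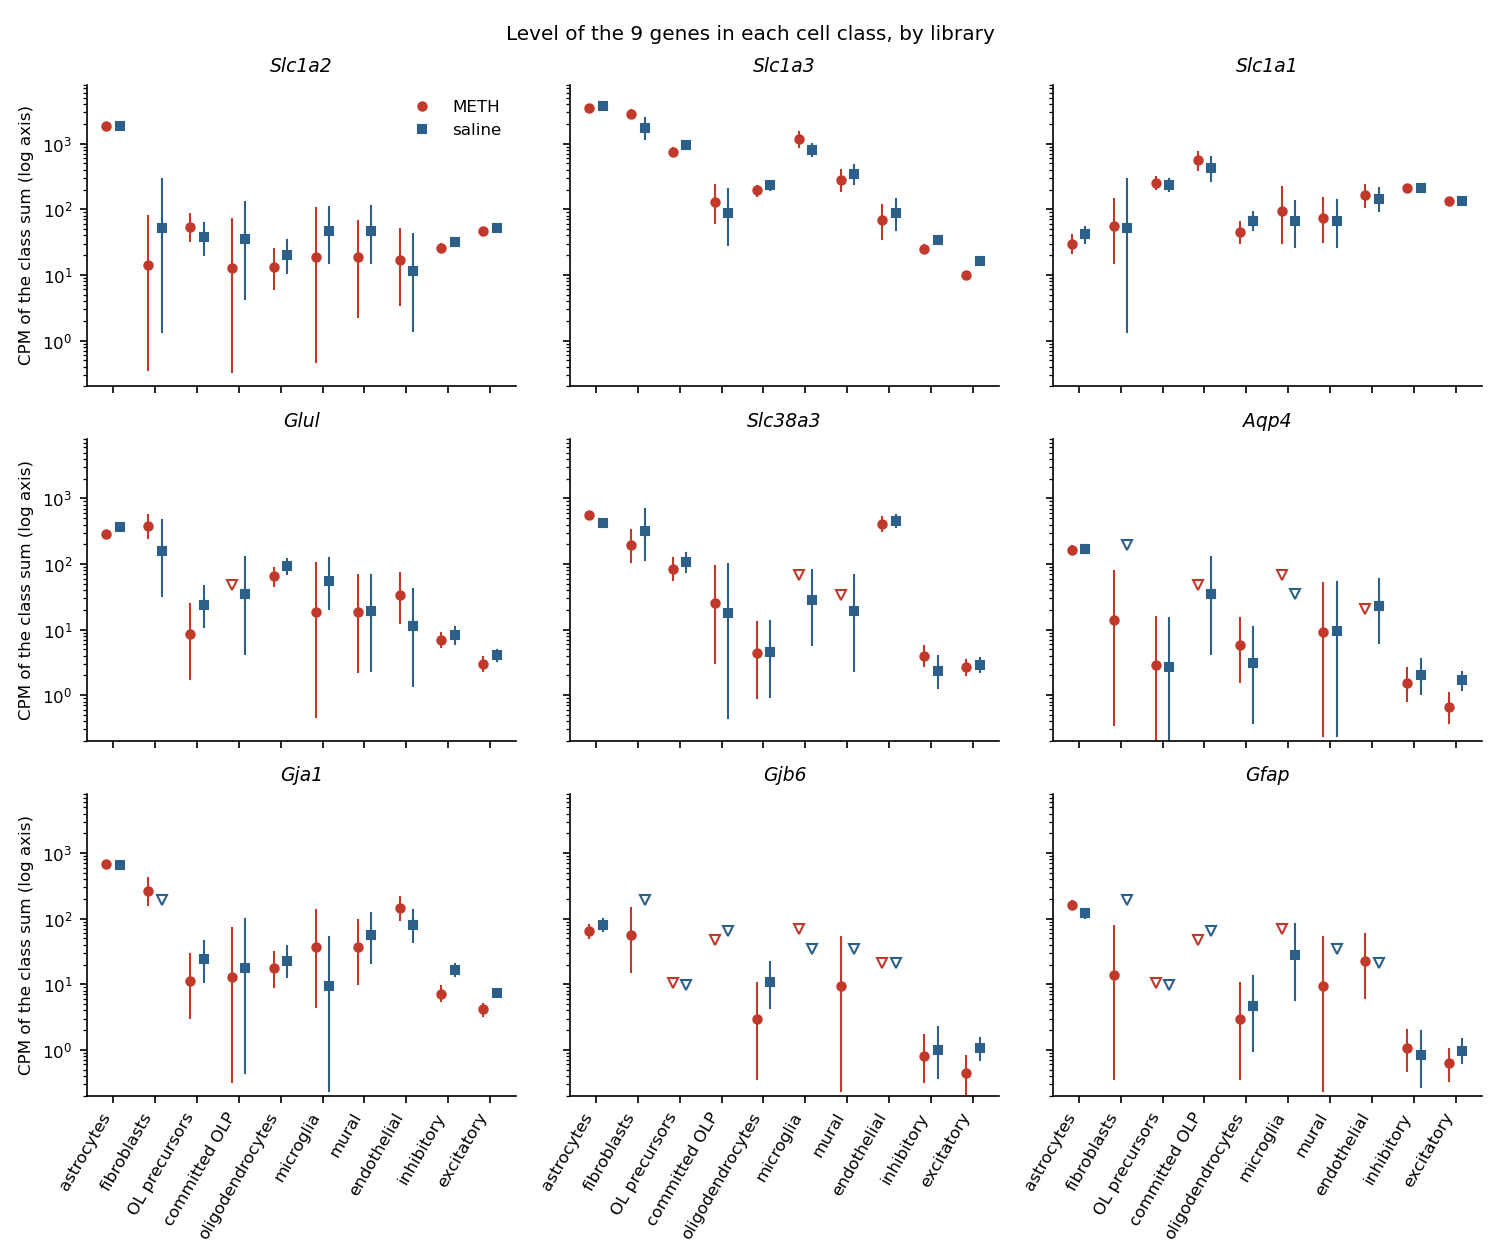
CPM of the class sum on a log axis for each gene in 10 cell classes, with METH as red circles and saline as blue squares; bars are exact Poisson 95% intervals of counting error, and open triangles mark the upper limit where a class had 0 UMIs. Astrocytes have the highest value for 6 genes in both libraries and for Glul and Slc38a3 in 1 library each, and the lowest for Slc1a1; the astrocyte interval overlaps that of at least 1 other class for Glul, Slc38a3, Gjb6 and Slc1a1 in both libraries, and for Aqp4 and Gfap in saline, where the other class is fibroblasts with 0 UMIs.

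Slc1a2 (ENSRNOG00000005479), the transporter that removes most glutamate in the forebrain, had 2460 UMIs in METH astrocytes and 2334 in saline astrocytes, or 1852 CPM in METH and 1869 CPM in saline. The log2 ratio of METH over saline was -0.01, with an exact conditional binomial 95% interval of -0.10 to 0.07. The libraries thus differed in it by less than the counting error. That is all that this and every other interval of a level or ratio here covers. Intervals of shares of nuclei treat each nucleus as an independent draw, and no interval here covers the spread between rats. No other class came near: oligodendrocyte precursors were next in METH at 54.0 CPM, and excitatory neurons stood at 47.1 CPM in METH and 52.2 CPM in saline.

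Slc1a3 (ENSRNOG00000016163), the transporter known as GLAST that is also used by radial glia and Bergmann glia, had 4671 UMIs in METH astrocytes and 4688 in saline astrocytes. Its level was 3516 CPM in METH and 3753 CPM in saline, a log2 ratio of -0.09 (-0.15 to -0.04). The interval lies below 0, but the difference is small, and with TMM scaling, which corrects for unequal composition, the ratio was -0.01. Unlike Slc1a2, Slc1a3 was widely shared among glia and vascular cells. Fibroblasts held 2811 CPM in METH (200 UMIs) and 1737 CPM in saline (33 UMIs), and microglia 1170 CPM in METH and 802 CPM in saline. Oligodendrocyte precursors held 753 CPM in METH and 941 CPM in saline, above microglia only in saline, where the intervals of these classes overlap. Mural nuclei came next with 278 CPM in METH and 342 CPM in saline, then oligodendrocytes with 194 CPM in METH and 231 CPM in saline, and excitatory neurons were last with 9.80 CPM in METH and 16.2 CPM in saline.

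Slc1a1 (ENSRNOG00000014816), the transporter of neuronal cell bodies and dendrites that also carries cysteine, was instead low in astrocytes. Their value was the last of the 10 classes, with 40 UMIs and 30.1 CPM in METH and 52 UMIs and 41.6 CPM in saline, but its interval overlaps those of oligodendrocytes, mural nuclei, microglia and fibroblasts in both libraries. That was 0.194 of the level of all other named nuclei in METH and 0.284 in saline. Committed oligodendrocyte precursors were the highest at 555 CPM in METH and 425 CPM in saline, from 25 METH nuclei and 21 saline nuclei. Oligodendrocyte precursors followed at 256 CPM in METH and 235 CPM in saline, inhibitory neurons at 209 CPM in METH and 212 CPM in saline, endothelial nuclei at 164 CPM in METH and 144 CPM in saline, and excitatory neurons at 136 CPM in METH and 132 CPM in saline. The astrocyte count was under the 100 UMIs set as a minimum for comparing libraries.

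Glul (ENSRNOG00000049560), the enzyme that joins ammonia to glutamate, had 387 UMIs in METH astrocytes and 452 in saline astrocytes, or 291 CPM in METH and 362 CPM in saline. The log2 ratio was -0.31 (-0.51 to -0.11), and the interval lies below 0. With the nuclei of both libraries matched on total UMIs it was -0.20 (-0.43 to 0.02), an interval that holds 0. Oligodendrocytes, which also make the enzyme, held 64.7 CPM in METH and 93.3 CPM in saline. Their 11 markers, all detected in both libraries, summed to 251 CPM in METH astrocytes and 414 CPM in saline astrocytes; their part in the Glul difference was not tested. Fibroblasts reached 379 CPM in METH on 27 UMIs and 158 CPM in saline on 3 UMIs, and their interval overlaps that of astrocytes in both libraries.

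Slc38a3 (ENSRNOG00000016827), which exports glutamine from astrocytes, had 732 UMIs in METH astrocytes and 518 in saline astrocytes. Its level was 551 CPM in METH and 415 CPM in saline, a log2 ratio of 0.41 (0.25 to 0.58). With nuclei matched on total UMIs, 382 from each library, it was 610 CPM in METH and 383 CPM in saline, a ratio of 0.67 (0.48 to 0.86). Without the smaller astrocyte cluster the ratio was 0.45 (0.28 to 0.62). In endothelial nuclei, where the transporter works at the blood-brain barrier, the level was 412 CPM in METH and 455 CPM in saline, a ratio of -0.14 (-0.62 to 0.33). Endothelial markers, 8 of 8 detected in each library, summed to 35.4 CPM in METH astrocytes and 36.8 CPM in saline astrocytes. Endothelial nuclei stood below astrocytes in METH and above them in saline, and the intervals overlap in both libraries, so the order was not resolved.

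Aqp4 (ENSRNOG00000016043), the end-foot water channel, had 215 UMIs in METH astrocytes and 209 in saline astrocytes, or 162 CPM in METH and 167 CPM in saline, with a log2 ratio of -0.05 (-0.33 to 0.23). Gja1 (ENSRNOG00000000805), the main astrocyte connexin, had 896 UMIs in METH and 831 in saline, or 675 CPM in METH and 665 CPM in saline, with a ratio of 0.02 (-0.12 to 0.16). Both intervals hold 0. Gjb6 (ENSRNOG00000022116), the second astrocyte connexin, had only 85 UMIs in METH and 101 in saline, or 64.0 CPM in METH and 80.9 CPM in saline; its ratio of -0.34 has an interval of -0.77 to 0.09, which holds 0. Outside astrocytes Gja1 was found in endothelial nuclei at 147 CPM in METH and 80.7 CPM in saline. In METH fibroblasts it was at 267 CPM (161 to 417). Saline fibroblasts held 0 UMIs of it, which allows up to 194 CPM, so the intervals overlap. Gjb6 and Gfap had 0 UMIs in oligodendrocyte precursors of both libraries, which allows up to 10.5 CPM in METH and 9.83 CPM in saline.

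Gfap (ENSRNOG00000002919) had 217 UMIs in METH astrocytes and 152 in saline astrocytes, or 163 CPM in METH and 122 CPM in saline. The log2 ratio was 0.42 (0.12 to 0.73), and matched on total UMIs it was 0.33 (-0.01 to 0.68), an interval that just holds 0. Its counts were uneven: the highest METH nucleus held 16 UMIs, 7.37% of the METH total, and the highest saline nucleus 8 UMIs, 5.26% of the saline total. Without both nuclei the ratio was 0.39 (0.08 to 0.71).

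To be called, a gene needed a difference of over 1.5-fold not only in its ratio but at the end of the interval nearest to 0. The rule was applied to genes measured by 100 or more UMIs in the 2 libraries together and by 20 CPM or more in one of them. In astrocytes 8 of the 9 genes were measured and 0 were called, against 0.412% of all measured genes (21 of 5102). Of the 8, 3 had a ratio above 0 and 5 below, with a median of -0.03, against -0.06 over all 5102 genes. There were 4 of the 8 with an interval that leaves out 0, against 17.2% of all 5102 genes: Slc38a3 and Gfap above it, Glul and Slc1a3 below. Intervals narrow as counts rise, and the 5102 genes were not matched to the 8 on counts, so these shares cannot be weighed against each other. Under looser rules 0 of the genes were called as well: with the ratio alone past 1.5-fold 4.72% of all genes were, with a smaller fold in the rule 1.72%, and with no minimum on UMIs or CPM, where all 9 genes enter, 0.439%. The ratios of Slc1a2, Slc1a3, Aqp4 and Gja1 all lay between -0.09 and 0.02, and the larger ones were those of the genes of glutamine handling, the second connexin and the filament gene.

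**Figure D2:**
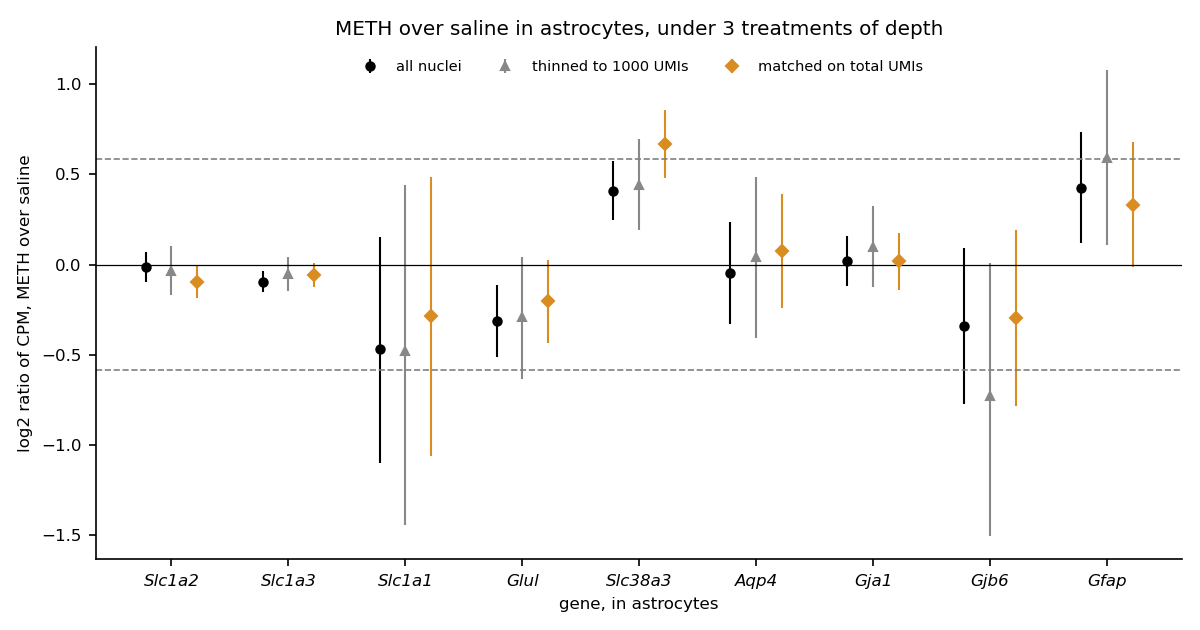
Log2 ratio of CPM in astrocytes, METH over saline, for each gene with all nuclei (black circles), each nucleus thinned to 1000 UMIs (grey triangles) and nuclei matched on total UMIs (orange diamonds); bars are exact 95% intervals of counting error and dashed lines mark 1.5-fold. Slc38a3 lies above 0 in all 3 treatments, between 0.41 and 0.67, and the bound nearest to 0 stays inside the dashed line each time.

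METH nuclei were deeper than saline nuclei, so the share of nuclei with a UMI was also read after each nucleus was thinned to 1000 UMIs, which left 451 METH and 533 saline astrocytes and dropped 3 shallower METH ones and 15 saline ones. Slc1a3 was then found in 94.9% of METH astrocytes and 94.6% of saline astrocytes, and Slc1a2 in 77.6% in METH and 77.5% in saline. Slc38a3 was found in 44.8% of METH astrocytes (exact interval 40.1 to 49.5) and 34.9% of saline astrocytes (30.9 to 39.1), intervals that do not overlap. At 2000 UMIs the shares were 59.8% in METH (54.3 to 65.1) and 50.3% in saline (44.4 to 56.3), and those intervals do overlap. Before thinning, the Slc38a3 shares were 76.7% in METH and 55.7% in saline, a wider gap than at equal depth. Excitatory neurons, which should lack the gene and whose median depth was 9350 UMIs in METH and 6412.5 UMIs in saline, gave 0.370% in METH and 0.313% in saline at the same 1000 UMIs.

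Glul was found in 23.5% of METH astrocytes and 28.5% of saline astrocytes at 1000 UMIs, and Gja1 in 47.9% in METH and 45.4% in saline. Aqp4 was found in 14.6% in METH and 15.0% in saline, Gfap in 13.5% in METH and 10.5% in saline, Gjb6 in 5.10% in METH and 8.07% in saline, and Slc1a1 in 3.55% in METH and 4.88% in saline. The intervals of the libraries overlap for each of these 6 genes. Before thinning, Gfap was found in 28.0% of METH astrocytes and 19.2% of saline astrocytes, and Glul in 51.3% in METH and 52.2% in saline. In excitatory neurons at 1000 UMIs, Gfap was in 0 of 2165 METH nuclei, which allows up to 0.170%, and in 0.0853% of saline nuclei; Gja1 was in 0.462% in METH and 0.967% in saline. A median of 3 of the 9 genes was seen per thinned astrocyte in both libraries, and 37.0% of METH and 38.5% of saline astrocytes showed at least 4.

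**Figure D3:**
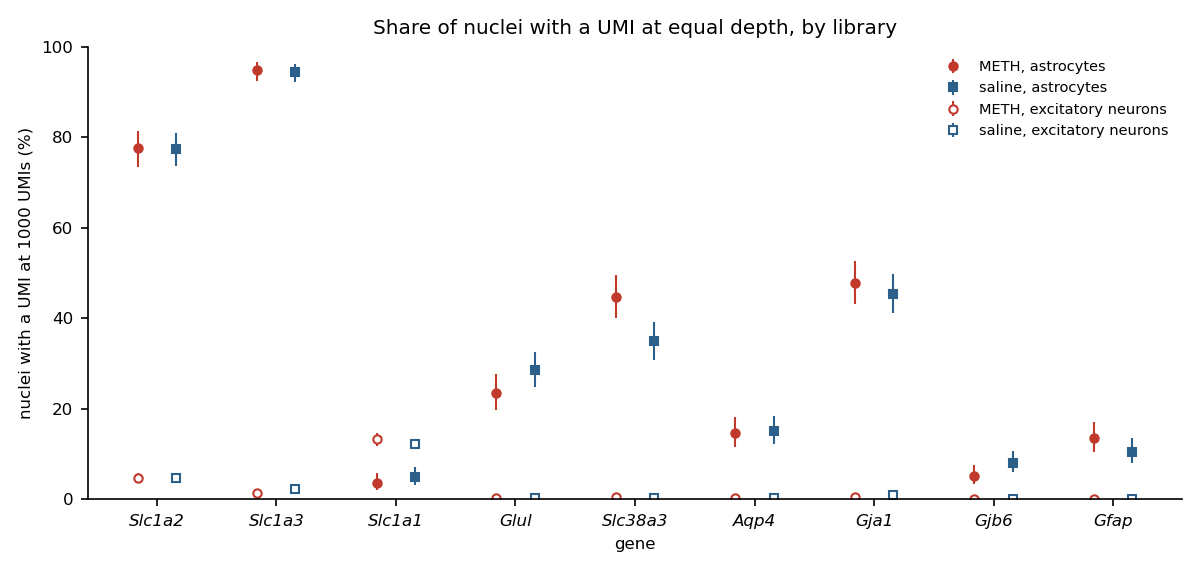
Percent of nuclei with at least 1 UMI of each gene after thinning to 1000 UMIs, in METH (red) and saline (blue), with filled symbols for astrocytes and open symbols for excitatory neurons; bars are exact Clopper-Pearson 95% intervals. Slc1a3 is near 95% of astrocytes in both libraries, and Slc1a1 is the gene seen more often in excitatory neurons, 13.2% in METH and 12.2% in saline, than in astrocytes.

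Astrocytes were divided further by clustering them alone, again without the 9 genes, into 6 subclusters, 4 of which held at least 50 nuclei. They are named here by their leading genes. Gfap and Aqp4 were both highest in the subcluster led by Tnc, Hs3st3a1 and Sema5a. It had 49 nuclei in each library and a median depth of 2281 UMIs in METH and 1793 UMIs in saline. There Gfap was at 601 CPM in METH (473 to 753) and 316 CPM in saline (213 to 452), intervals that do not overlap. Aqp4 was at 505 CPM in METH (388 to 646) and 264 CPM in saline (171 to 389), which overlap at their ends. These were counts of 75 UMIs in METH and 30 in saline for Gfap, and 63 in METH and 25 in saline for Aqp4.

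In the other 3 large subclusters Gfap lay between 99.4 and 143 CPM in METH and between 94.6 and 109 CPM in saline. In the largest of them, led by Pde7b and Pld5 with 179 METH and 147 saline nuclei, Gfap was at 99.4 CPM in METH and 109 CPM in saline. In the subcluster led by Kcnq3 and Tmtc1 it was at 136 CPM in METH and 94.6 CPM in saline. In that led by Extl1 and Nsmf it was at 143 CPM in METH and 97.5 CPM in saline, and the intervals of both overlap. So Gfap was higher in METH in each large subcluster but the Pde7b one. Slc38a3 was higher in METH in all 4: it was at 587 CPM in METH and 359 CPM in saline in the Pde7b subcluster, where the intervals do not overlap. It was at 568 CPM in METH and 442 CPM in saline in the one led by Kcnq3 and Tmtc1, 505 CPM in METH and 401 CPM in saline in the Tnc one, and 697 CPM in METH and 512 CPM in saline in the one led by Extl1 and Nsmf. In those 3 the intervals overlap.

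Slc1a2 and Slc1a3 varied less among the 4 subclusters than Gfap and Aqp4 did. In the Tnc subcluster Slc1a2 was at 1578 CPM in METH and 1751 CPM in saline, and Slc1a3 at 3364 CPM in METH and 3280 CPM in saline. Among the 4, both were lowest in METH nuclei of the Extl1 subcluster, where Slc1a2 was at 1302 CPM in METH (1105 to 1524) and 1749 CPM in saline (1599 to 1909). That subcluster held 62 METH and 170 saline nuclei and was the shallowest, its median depth being 1824.5 UMIs in METH and 1577.5 UMIs in saline. Its next leading genes were Rhbdl3 and Grin1, and the part of neuronal RNA in it was not tested. Gja1 in the Tnc subcluster was at 897 CPM in METH and 601 CPM in saline, and Gjb6 had only 5 UMIs there in each library. Among thinned METH astrocytes, Aqp4 was at 426 CPM in the 61 nuclei with a Gfap UMI and 141 CPM in the 390 without, a log2 ratio of 1.60 (0.86 to 2.29). Among saline astrocytes it was at 232 CPM in 56 nuclei and 168 CPM in 477, a ratio of 0.47 (-0.50 to 1.32), which holds 0.

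**Figure D4:**
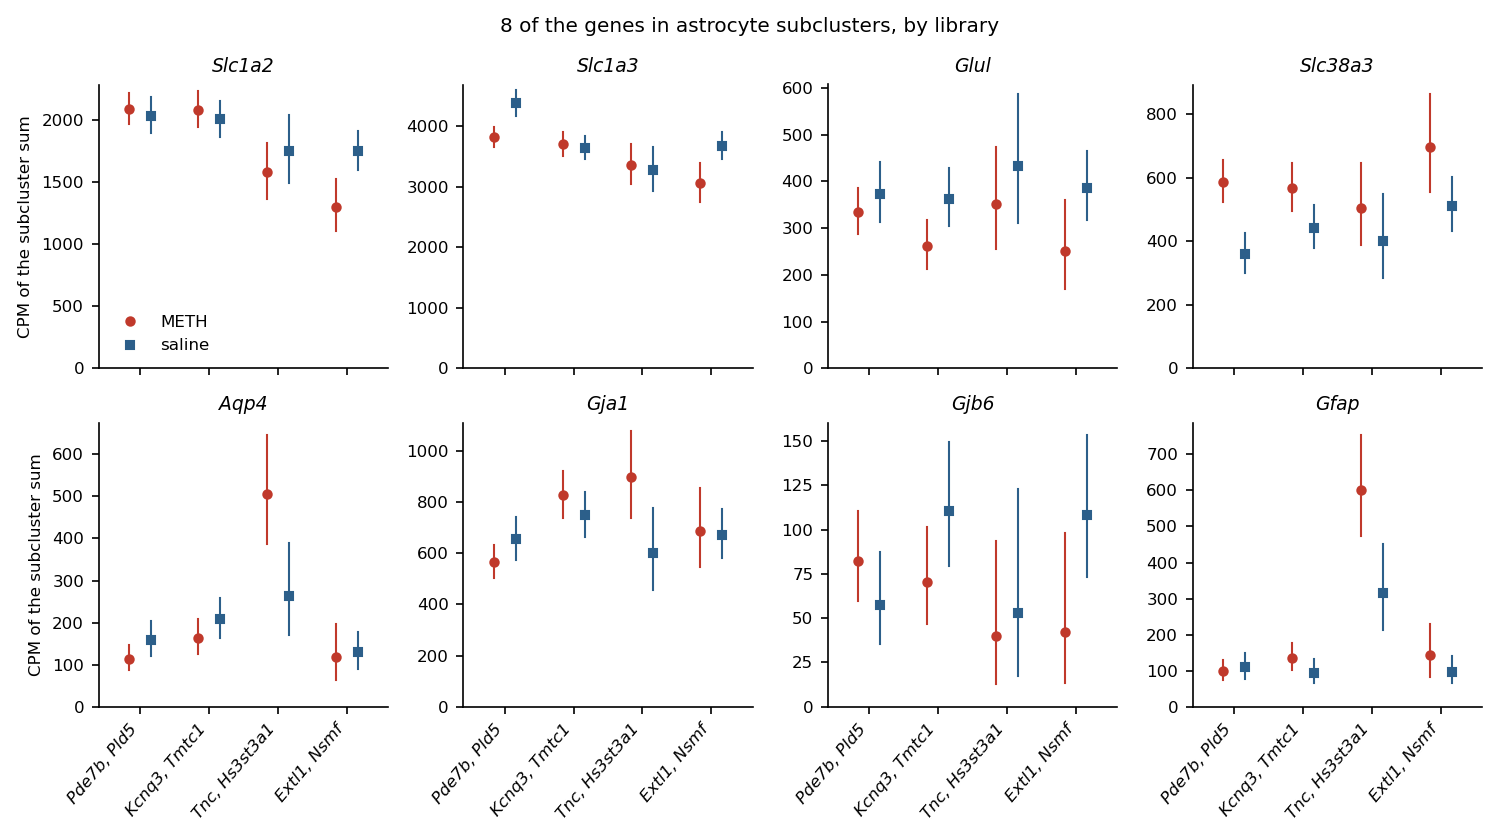
CPM of the subcluster sum for 8 of the genes in the 4 astrocyte subclusters of at least 50 nuclei, named by leading genes, with METH as red circles and saline as blue squares and exact Poisson 95% intervals as bars. Gfap and Aqp4 are highest in the Tnc subcluster, at 601 and 505 CPM in METH and 316 and 264 CPM in saline, and Slc38a3 is higher in METH in each of the 4.

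Neurons were compared next, since Slc1a1 is their own transporter and Slc1a2 is also transcribed in some of them. In excitatory neurons 2 of the 9 genes were measured and 0 were called, against 0.336% of all genes; Slc1a1 had a log2 ratio of 0.04 (-0.03 to 0.11) and Slc1a2 one of -0.15 (-0.27 to -0.03). In inhibitory neurons 3 were measured and 0 called, against 0.291% of all genes. There Slc1a1 had a ratio of -0.02 (-0.13 to 0.08), Slc1a2, at 25.8 CPM in METH and 31.8 CPM in saline, one of -0.30 (-0.59 to -0.02), and Slc1a3, at 25.1 CPM in METH and 33.8 CPM in saline, one of -0.43 (-0.72 to -0.15).

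The levels of Slc1a2 and Slc1a1 depended far more on the neuron cluster than on the library. Slc1a2 was highest in the excitatory cluster led by Htr4 and Vwc2l, at 132 CPM in METH and 148 CPM in saline, followed by the one led by Foxp2 and Syt6, at 108 CPM in METH and 114 CPM in saline. It was lowest among excitatory clusters in the one led by Chst8 and Klhl1, at 16.4 CPM in METH and 23.5 CPM in saline, together with the one led by Glis3 and Otof, at 17.7 CPM in METH and 23.5 CPM in saline. Slc1a1 followed another order. It was highest among them in the Chst8 cluster, at 249 CPM in METH and 265 CPM in saline, then in the Foxp2 cluster, at 155 CPM in METH and 172 CPM in saline, and it was at 113 CPM in METH and 114 CPM in saline in the Htr4 cluster. In inhibitory neurons the contrast was wider. The Btbd11 and Mybpc1 cluster had Slc1a1 at 343 CPM in METH and 334 CPM in saline, with Slc1a2 at 7.45 CPM in METH and 9.67 CPM in saline. The Vip cluster had Slc1a1 at 140 CPM in METH and 173 CPM in saline, with Slc1a2 at 84.7 CPM in METH and 83.9 CPM in saline.

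Slc1a3 among inhibitory clusters was highest in the one led by Pde11a and Sv2c, at 124 CPM in METH and 108 CPM in saline. Per 100 Slc1a3 UMIs, astrocytes held 52.7 Slc1a2 UMIs in METH and 49.8 in saline, and excitatory neurons held 481 in METH and 322 in saline. The part of free RNA in the neuronal counts was not tested.

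**Figure D5:**
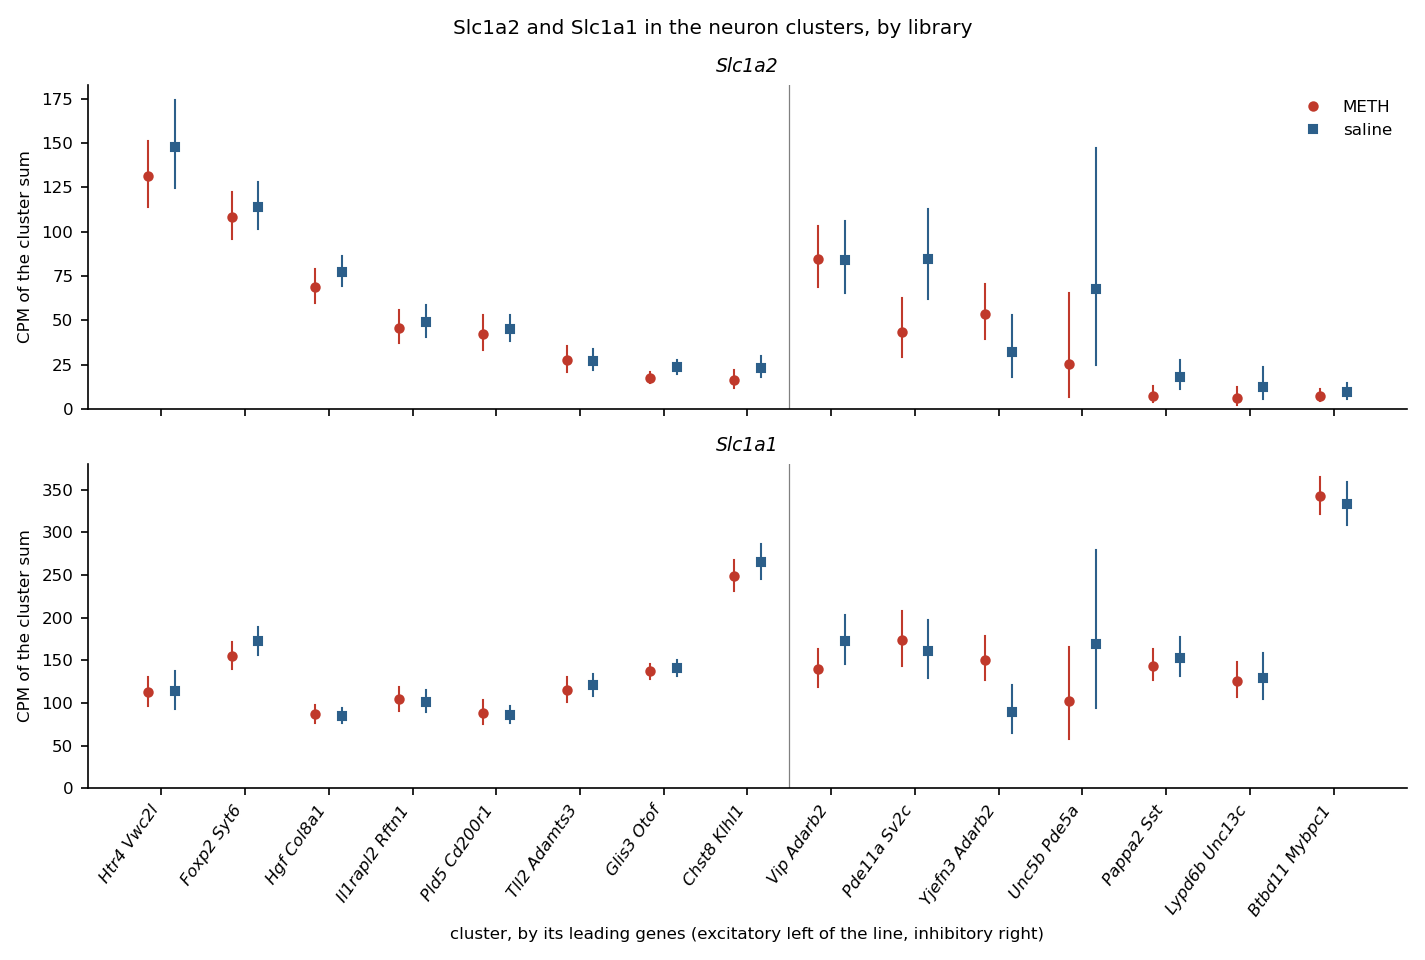
CPM of the cluster sum for Slc1a2 (top) and Slc1a1 (bottom) in excitatory clusters, left of the line, and inhibitory clusters, right of it, ordered by Slc1a2 and named by leading genes, with METH as red circles, saline as blue squares and exact Poisson 95% intervals as bars. Slc1a2 runs from 132 CPM in METH and 148 CPM in saline in the Htr4 cluster to under 10 CPM in both libraries in the Btbd11 cluster, where Slc1a1 is highest.

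The other 7 genes were low in excitatory neurons, each under the 20 CPM minimum in both libraries, so they did not count as measured. Each had a ratio below 0 there, with an interval that held 0 for Glul, Slc38a3 and Gfap. The median ratio of the 7141 genes measured in that class was -0.01. In excitatory neurons Slc1a3 was at 9.80 CPM in METH and 16.2 CPM in saline, Gja1 at 4.12 CPM in METH and 7.46 CPM in saline and Aqp4 at 0.665 CPM in METH and 1.68 CPM in saline. In inhibitory neurons Gja1 was at 7.22 CPM in METH and 16.5 CPM in saline, a ratio of -1.19 (-1.67 to -0.72) on levels below the 20 CPM minimum. Slc38a3, at 3.96 CPM in METH and 2.36 CPM in saline, was instead higher in METH there. So was Gfap, at 1.05 CPM in METH and 0.841 CPM in saline, and both intervals hold 0. A gene of excitatory terminals, Slc17a7, was at 33.1 CPM in METH and 61.6 CPM in saline in astrocytes. It was at 41.2 CPM in METH and 82.6 CPM in saline in oligodendrocytes. Excitatory neurons themselves held 321 CPM in METH and 346 CPM in saline. The summed excitatory markers were lower in METH in astrocytes, oligodendrocytes, their precursors and endothelial nuclei. In mural nuclei they were at 408 CPM in both libraries. In inhibitory neurons they were higher in METH, at 987 CPM against 895 CPM in saline. Astrocyte markers in excitatory neurons were also higher in METH, at 198 CPM against 186 CPM in saline. The part of free RNA in these counts was not tested.

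Among the remaining classes, 2 of the 9 genes were measured and 0 called in oligodendrocytes, where 0.927% of all genes were called; Slc1a3 had a ratio of -0.25 (-0.60 to 0.09) and Glul one of -0.53 (-1.12 to 0.05). In oligodendrocyte precursors 2 were measured and 0 called, against 0.0627% of all genes, with Slc1a3 at -0.32 (-0.56 to -0.09) and Slc1a1 at 0.12 (-0.32 to 0.56). In endothelial nuclei Slc38a3 alone was measured and was not called, against 0.690% of all genes. Mural nuclei had too few UMIs of any of the 9. The ratio of Slc1a3 was below 0 in each of the 4 classes where it was measured, astrocytes, inhibitory neurons, oligodendrocytes and their precursors. In oligodendrocytes the interval held 0, and with TMM scaling the astrocyte ratio was -0.01. The median of all measured genes was also below 0 in these classes. It was -0.06 in astrocytes, -0.01 in inhibitory neurons, -0.11 in oligodendrocytes and -0.01 in their precursors.

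Genes of the same pathways were read from 5 lists in astrocytes. Of any list 0 genes were called, against 0.412% of all measured genes (21 of 5102). At so low a share, 0 calls among so few genes say little about the lists. The median ratio of all 5102 genes was -0.06. Of 18 further genes of glutamate and glutamine metabolism and transport, 11 were measured, 3 with a ratio above 0 and 8 below, with a median of -0.10. Gpt2, a mitochondrial alanine aminotransferase, was at 581 CPM in METH and 436 CPM in saline, a ratio of 0.41 (0.25 to 0.57), the same size as that of Slc38a3. Pc, pyruvate carboxylase, with which astrocytes make new glutamate, was at 94.1 CPM in METH and 138 CPM in saline, a ratio of -0.55 (-0.89 to -0.21). The third of the largest ratios was that of the neuronal gene Slc17a7, -0.90 (-1.46 to -0.34).

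Of 15 genes of the end-foot and of potassium buffering, 13 were measured, 6 above 0 and 7 below, with a median of -0.08. Dmd, which anchors the water channel at end-feet, was at 1055 CPM in METH and 940 CPM in saline, a ratio of 0.17 (0.05 to 0.28). Kcnj10, the inward rectifier potassium channel, was at 61.0 CPM in METH and 68.9 CPM in saline, a ratio of -0.18 (-0.63 to 0.28). Of 11 other gap junction and pannexin genes 1 was measured, the scaffold Tjp1, at 198 CPM in METH and 223 CPM in saline with a ratio of -0.17 (-0.42 to 0.08).

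Of 15 filament and reactivity genes, 14 are in the files and 2 were measured: Stat3 at 114 CPM in METH and 91.3 CPM in saline, a ratio of 0.33 (-0.03 to 0.69), and Sox9, also a marker used for naming astrocytes, at 114 CPM in METH and 102 CPM in saline, a ratio of 0.17 (-0.18 to 0.52). Vim had 8 UMIs in METH and 1 in saline, Synm 21 in METH and 37 in saline, and Lcn2 0 in METH and 1 in saline, so companions of Gfap in reactive astrocytes were too sparse to compare. Of 8 other genes that sense or clear transmitter, 7 were measured, 5 above 0 and 2 below, with a median of 0.09. Slc6a11, the GABA transporter of astrocytes, was at 222 CPM in METH and 167 CPM in saline, a ratio of 0.42 (0.15 to 0.68). Gria4, an AMPA receptor subunit, was at 139 CPM in METH and 109 CPM in saline, a ratio of 0.36 (0.03 to 0.69).

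Genes with the most similar pattern were sought over the 25 clusters of at least 50 nuclei, with both libraries summed, by Pearson's r of log2(CPM + 10) among 10468 genes; the clusters share libraries and differ in depth, so r is a description. Slc1a2 was most like Lgi4 (r = 0.88), Etnppl (0.87) and AC118957.1 (0.87), and Slc1a3 most like Phf21a (0.96), Tcf7l2 (0.95) and Gramd2b (0.93). Slc1a1 had the weakest companions, Clip4, Zkscan2 and Sult4a1, each at 0.76. Glul was most like Gramd2b (0.94), Sorbs3 (0.94) and Gli2 (0.93), and Slc38a3 most like Nxn (0.91), Pdgfd (0.91) and Cpt1a (0.90). Gja1 was most like Lonrf3 (0.99), F3 (0.95) and Smarcd2 (0.94), and Gjb6 most like Rhpn2 (0.96), Efemp1 (0.95) and Lmod1 (0.92). For Aqp4 they were Fgf2 (0.96), Papss2 (0.95) and Prdx6 (0.95), and for Gfap Mlc1 (0.96), Col11a2 (0.96) and Slc25a18 (0.96). Over the same clusters Gfap and Aqp4 had r = 0.92 with each other, and Slc1a1 had r from -0.65 to -0.31 with the other 8. In all other named nuclei together, Gfap reached at most 1.09 CPM and Aqp4 1.97 CPM, both in saline. These are below the 10 CPM added before the log, so the r of Gfap with Aqp4 mostly sets the 2 astrocyte clusters against the rest.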

How the data were processed

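Single-nucleus libraries were made with 10x Genomics 3' v3.1 chemistry, per the labels' protocols. The authors deposited raw UMI counts of each gene in each barcode, from Cell Ranger 7.0.0 per the submitters' processing notes; those name hg38 although the identifiers are rat, and the sources used here name no rat build. Barcodes needed 500 or more genes and no more than 5% mitochondrial UMIs (5487 METH, 6910 saline). Scrublet doublets at an expected rate of 0.06 were removed (328 METH, 401 saline). Clustering in scanpy 1.11.5 used 2000 variable genes without the 9 genes and the listed genes (75 held out), 30 components, 15 neighbours and Leiden resolution 1, with no integration. It gave 29 clusters. Those with a mean marker level of at least 0.4 of the highest cluster's were named, as X-like classes written without the suffix, by thresholds set after the markers were seen. The 5 clusters left unnamed (mixed, led by another class's genes, without a class level, or over 90% from 1 library) held 9.48% of METH and 4.56% of saline nuclei. UMIs were summed per class and library and scaled to CPM, with exact Poisson intervals; ratios have exact conditional binomial intervals and shares Clopper-Pearson intervals, all at 95%. Libraries were compared in classes of 50 or more nuclei in each. All 9 genes are named, and of each list the 3 measured genes with the largest absolute ratio, except that some are not reported here. The members and lists were chosen with earlier results of these data known. The size rule and the thinning were tested on simulated data. TMM factors came from edgeR 4.0.16.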

Additional observations from a re-analysis of the deposited data

How the results depend on the processing

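No paired analysis was possible because each group has 1 library. The count of called genes in astrocytes was 0 of 8 in the alternatives that gave a count, and 0 of 9 with no minimum on UMIs or CPM. The median ratio of the measured genes ran from -0.10, with nuclei gated on marker UMIs, to 0.06 with TMM scaling, around -0.03. Of 135 alternative ratios in astrocytes 132 lay within the interval of the reported value. The 3 outside it were Slc38a3 with nuclei matched on total UMIs (0.67), and Slc1a2 (0.07) and Slc1a3 (-0.01) with TMM scaling. The ratio kept its sign in all 15 alternatives for Slc1a3, Slc1a1, Glul, Slc38a3, Gjb6 and Gfap, in 9 for Slc1a2, 11 for Aqp4 and 14 for Gja1. Slc38a3 ranged from 0.34 to 0.67, Gfap from 0.30 to 0.59, Glul from -0.37 to -0.20 and Gjb6 from -0.73 to -0.25. In other classes 145 of 149 lay within the interval; those outside were Slc1a2 (-0.02) and Slc1a1 (0.15) in excitatory neurons and Glul in oligodendrocytes (0.06) when thinned, and Slc1a3 in inhibitory neurons when gated (-0.74). Of 252 alternative log2 ratios of astrocytes over other nuclei 197 lay within the interval; they ran from 4.13 (Glul in METH, thinned) to 7.81 (Gfap in saline, thinned), and for Slc1a1 from -2.74 to -1.31. Of 216 thinned shares 167 did, and most of the others were at a depth of 500 or 2000 UMIs. The cause was not tested. Leaving out the smaller astrocyte cluster was chosen after seeing the data. The 4 animals of a group cannot be told apart from their library, and counts under 100 UMIs, as for Gjb6 in METH, leave intervals wide enough to hold a 1.5-fold difference. The Gfap interval in astrocytes, on 217 METH and 152 saline UMIs, also holds it, reaching 1.66-fold.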

Other observations

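An unnamed cluster led by Bnc2 and Plce1, with 32 METH and 3 saline nuclei, held Gfap, Slc1a3 and Gja1 but no UMIs of Slc1a2. In its METH nuclei Gfap was at 364 CPM (233 to 542), Slc1a3 at 759 CPM (563 to 1001) and Gja1 at 455 CPM (307 to 650), on 24, 50 and 30 UMIs. Slc1a2, Slc38a3 and Gjb6 had 0 UMIs there, which allows up to 56.0 CPM each. Its 3 saline nuclei held 0 UMIs of all 9 genes, which allows up to 657 CPM of each, so no comparison was made.

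A further unnamed cluster, led by Trdn, Cpa6 and Pbx3, had 148 METH and 2 saline nuclei. Its METH nuclei held Slc38a3 at 59.0 CPM (41.1 to 82.1), above the 3.96 CPM of METH inhibitory neurons, and Slc1a1 at 241 CPM (203 to 284). Gfap had 0 UMIs in it, which allows up to 6.22 CPM.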
